A study of Rattus norvegicus with 23 samples.

Results

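Kidney tubule injury markers are genes whose transcripts are used to recognise damaged or repairing tubule epithelium. The 10 markers described here were taken by gene symbol from the annotated count table of 2 rat kidney cell lines, which lists 30452 genes: Havcr1, Lcn2, Spp1, Clu, Sox9, Gdf15, Vim, Cd44, Anxa1 and Cd24. Of these, 9 had enough counts to be tested among 14777 tested genes, and Havcr1 had no count in any of the 23 samples. RNA was sequenced from NRK-52E cells, labelled as epithelial, at pH 7.4 (n = 6) and pH 6.0 (n = 6), and from NRK-49F cells, labelled as fibroblasts, at pH 7.4 (n = 6) and pH 6.0 (n = 5). Both are established lines from normal rat kidney, so each stands for 1 immortal line in monoculture and not for tubules or interstitium. All cells were first kept in medium without serum for a day, and then exposed for 2 days to control medium or to medium brought to pH 6.0 with HCl, which lowers bicarbonate as in metabolic acidosis. The labels divide each line into 2 sample groups that each hold both pH values: groups 1 and 3 of NRK-52E cells with 3 samples per pH, and groups 4 and 6 of NRK-49F cells with 3 samples per pH, except for 2 at pH 6.0 in group 4. The labels do not say what the sample groups are or whether samples were separate cultures, so all p-values measure the spread between these samples only.

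After ischaemic or toxic injury, surviving tubule cells lose mature functions, spread over the bare basement membrane and divide before they differentiate again. During this response they shed or secrete proteins that can be read in urine (Havcr1, also named KIM-1; Lcn2, also named NGAL; Clu; Spp1), take up mesenchymal and progenitor features (Vim, Cd44, Cd24, Sox9) and raise stress cytokines such as Gdf15. Several of the same genes are ordinary products of fibroblasts, and for that reason the levels in both lines are given side by side. A low extracellular pH is one of the conditions met by tubule cells in an ischaemic or acidotic kidney.

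The promoter sequences are shown for the members that changed in the same direction in both lines without overlap between the pH levels: Gdf15, which rose, and Lcn2 and Anxa1, which fell. Gdf15 passed the filter on low counts only through its acidic samples. Each is the RefSeq window of rat assembly GRCr8 from 250 bases before to 50 bases after an annotated start, read 5′ to 3′ on the strand of the gene, with TATAAA in capitals. Gdf15 has 2 such windows, and only the downstream one holds this TATA-box sequence.
Gdf15, upstream start, chr16:18838186-18838485, plus strand: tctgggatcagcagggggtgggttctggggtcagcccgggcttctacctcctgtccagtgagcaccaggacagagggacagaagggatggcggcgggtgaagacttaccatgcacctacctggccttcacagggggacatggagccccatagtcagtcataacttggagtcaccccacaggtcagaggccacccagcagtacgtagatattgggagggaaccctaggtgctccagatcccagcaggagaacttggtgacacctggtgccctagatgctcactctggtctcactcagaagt
Gdf15, downstream start, chr16:18839015-18839314, plus strand: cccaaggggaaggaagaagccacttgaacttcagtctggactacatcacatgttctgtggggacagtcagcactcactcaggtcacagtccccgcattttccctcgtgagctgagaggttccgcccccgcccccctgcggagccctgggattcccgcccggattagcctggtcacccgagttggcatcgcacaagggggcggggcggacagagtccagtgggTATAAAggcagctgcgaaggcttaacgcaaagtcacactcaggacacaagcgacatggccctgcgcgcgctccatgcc
Lcn2, chr3:36081731-36082030, minus strand: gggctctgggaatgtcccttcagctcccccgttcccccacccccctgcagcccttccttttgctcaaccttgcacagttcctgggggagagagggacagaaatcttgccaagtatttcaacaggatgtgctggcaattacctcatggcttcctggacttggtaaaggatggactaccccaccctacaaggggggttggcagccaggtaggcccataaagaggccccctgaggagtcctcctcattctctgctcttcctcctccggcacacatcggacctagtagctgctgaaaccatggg
Anxa1, chr1:227303683-227303982, minus strand: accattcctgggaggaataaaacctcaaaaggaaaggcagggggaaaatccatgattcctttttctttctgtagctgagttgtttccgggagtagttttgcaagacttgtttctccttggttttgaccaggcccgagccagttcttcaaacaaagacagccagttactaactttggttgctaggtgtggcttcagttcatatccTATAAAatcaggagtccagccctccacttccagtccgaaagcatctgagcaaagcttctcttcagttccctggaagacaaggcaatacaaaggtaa

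Windows were found for 8 members, 9 windows in all, and none for Clu and Sox9. The windows were searched on both strands for 4 short sequences bound by stress factors: the C/EBP-ATF response element TGATGNAA, present in 3.98% of all 33469 rat windows, the AP-1 element TGANTCA (7.33%), the STAT element TTCNNNGAA (8.87%) and the heat shock element GAANNTTC (8.59%). The only match among the members was a heat shock element in the window of Havcr1, the member without counts. TATAAA, added after the windows had been seen, was present in 4 of the 9 windows (Spp1, Gdf15, Vim and Anxa1) and in 14.2% of all windows. These letters are matches in a fixed window and not binding sites.

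The library totals were 16412564 to 34250535 counts. Levels are given as FPM, counts per 1000000 counts of the scaled library total, and can be compared between samples of 1 gene but not between genes. The markers of the labelled cell types were partly at odds with the label of NRK-52E cells. Of 12 epithelial markers in the table, 10 averaged less than 1 FPM in NRK-52E cells at pH 7.4, among them Cdh1 (E-cadherin) at 0.160 FPM, Krt18 at 0.0185 FPM and Epcam at 0.00758 FPM, and Esrp1 and Cldn4 had no count. Krt7 averaged 21.8 FPM in NRK-52E and 1.42 FPM in NRK-49F cells, while Krt8 averaged 499 and 839 FPM. The summed epithelial list reached 463 to 683 FPM in NRK-52E and 669 to 1208 FPM in NRK-49F cells at pH 7.4, so it did not mark the line labelled epithelial. The fibroblast markers Pdgfra (306 against 1.83 FPM), Vcam1 (272 against 1.2 FPM) and Col1a2 (4476 against 13.5 FPM) were high in NRK-49F cells and low in NRK-52E cells, but Col3a1 was higher in NRK-52E cells (6149 against 1212 FPM). The lines are therefore called by their names below. Summed over 13 fibroblast markers the level was 4912 to 8105 FPM in NRK-52E and 10780 to 13881 FPM in NRK-49F cells at pH 7.4, and of 11 tested, 10 were lower at pH 6.0 in NRK-52E cells (36.6% of all tested genes were) and 3 in NRK-49F cells (14.4% were). Pdgfra, Vcam1 and Prrx1 also served to read the NRK-49F signal described next, and Prrx1 and Lum were not called in NRK-52E cells without the 3 samples that carry it (adjusted p = 0.138 and 1). Of 6 endothelial markers, Emcn and Kdr had no counts and 3 were tested. In NRK-52E cells Tek was called lower, from 14.3 FPM at pH 7.4 to 1.76 FPM at pH 6.0. Pecam1 (0.0561 to 0.581 FPM) and Vwf (0.637 to 1.65 FPM) were called higher there, Vwf not within sample group 3. None of the 3 was called in NRK-49F cells. The leukocyte list was carried in NRK-49F cells by the lysosomal gene Cd68, at 29.9 FPM at pH 7.4 and 229 FPM at pH 6.0, while Ptprc and Adgre1 had no or almost no counts. In NRK-52E cells all 3 tested leukocyte markers were higher at pH 6.0, where 24.7% of all tested genes were. These were Cd68 (1.90 to 4.15 FPM), Lyz2 (1.65 to 4.02 FPM) and Csf1r (0.872 to 2.09 FPM), Csf1r not within sample group 3.

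In 3 NRK-52E samples at pH 7.4, genes of NRK-49F cells were found at a low level. Over 12 genes that averaged at least 100 FPM in NRK-49F cells at each pH and had at most 3 counts in each NRK-52E sample at pH 6.0, the median level was 1.47% of that in NRK-49F cells in replicate A021 (quartiles 1.35% and 1.54%), 0.444% in A022 (0.295% and 0.580%) and 0.376% in A033 (0.225% and 0.611%). It was 0.0511% in A034, 0.0133% in A023 and 0 in A035. The 6 samples at pH 6.0 reached at most 0.00552%, which follows from how the genes were chosen. Col1a2, from the marker list and outside this choice, averaged 13.5 FPM in NRK-52E cells at pH 7.4 and 0.347 FPM at pH 6.0. Among the members, Spp1 and Cd24 were highest in these 3 samples, while Sox9 had no count in A022, and Cd44 was lower in A022 (0.527% of the NRK-49F mean) than in A023 (0.591%) and A035 (1.11%). The changes at pH 6.0 of these 4 members in NRK-52E cells are also given without the 3 libraries and with the estimated signal subtracted, both chosen after the data were seen. Because the genes were chosen as near absent at pH 6.0, the subtraction took counts almost only from control samples. By construction it therefore made falls smaller and rises larger.

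**Figure D1:**
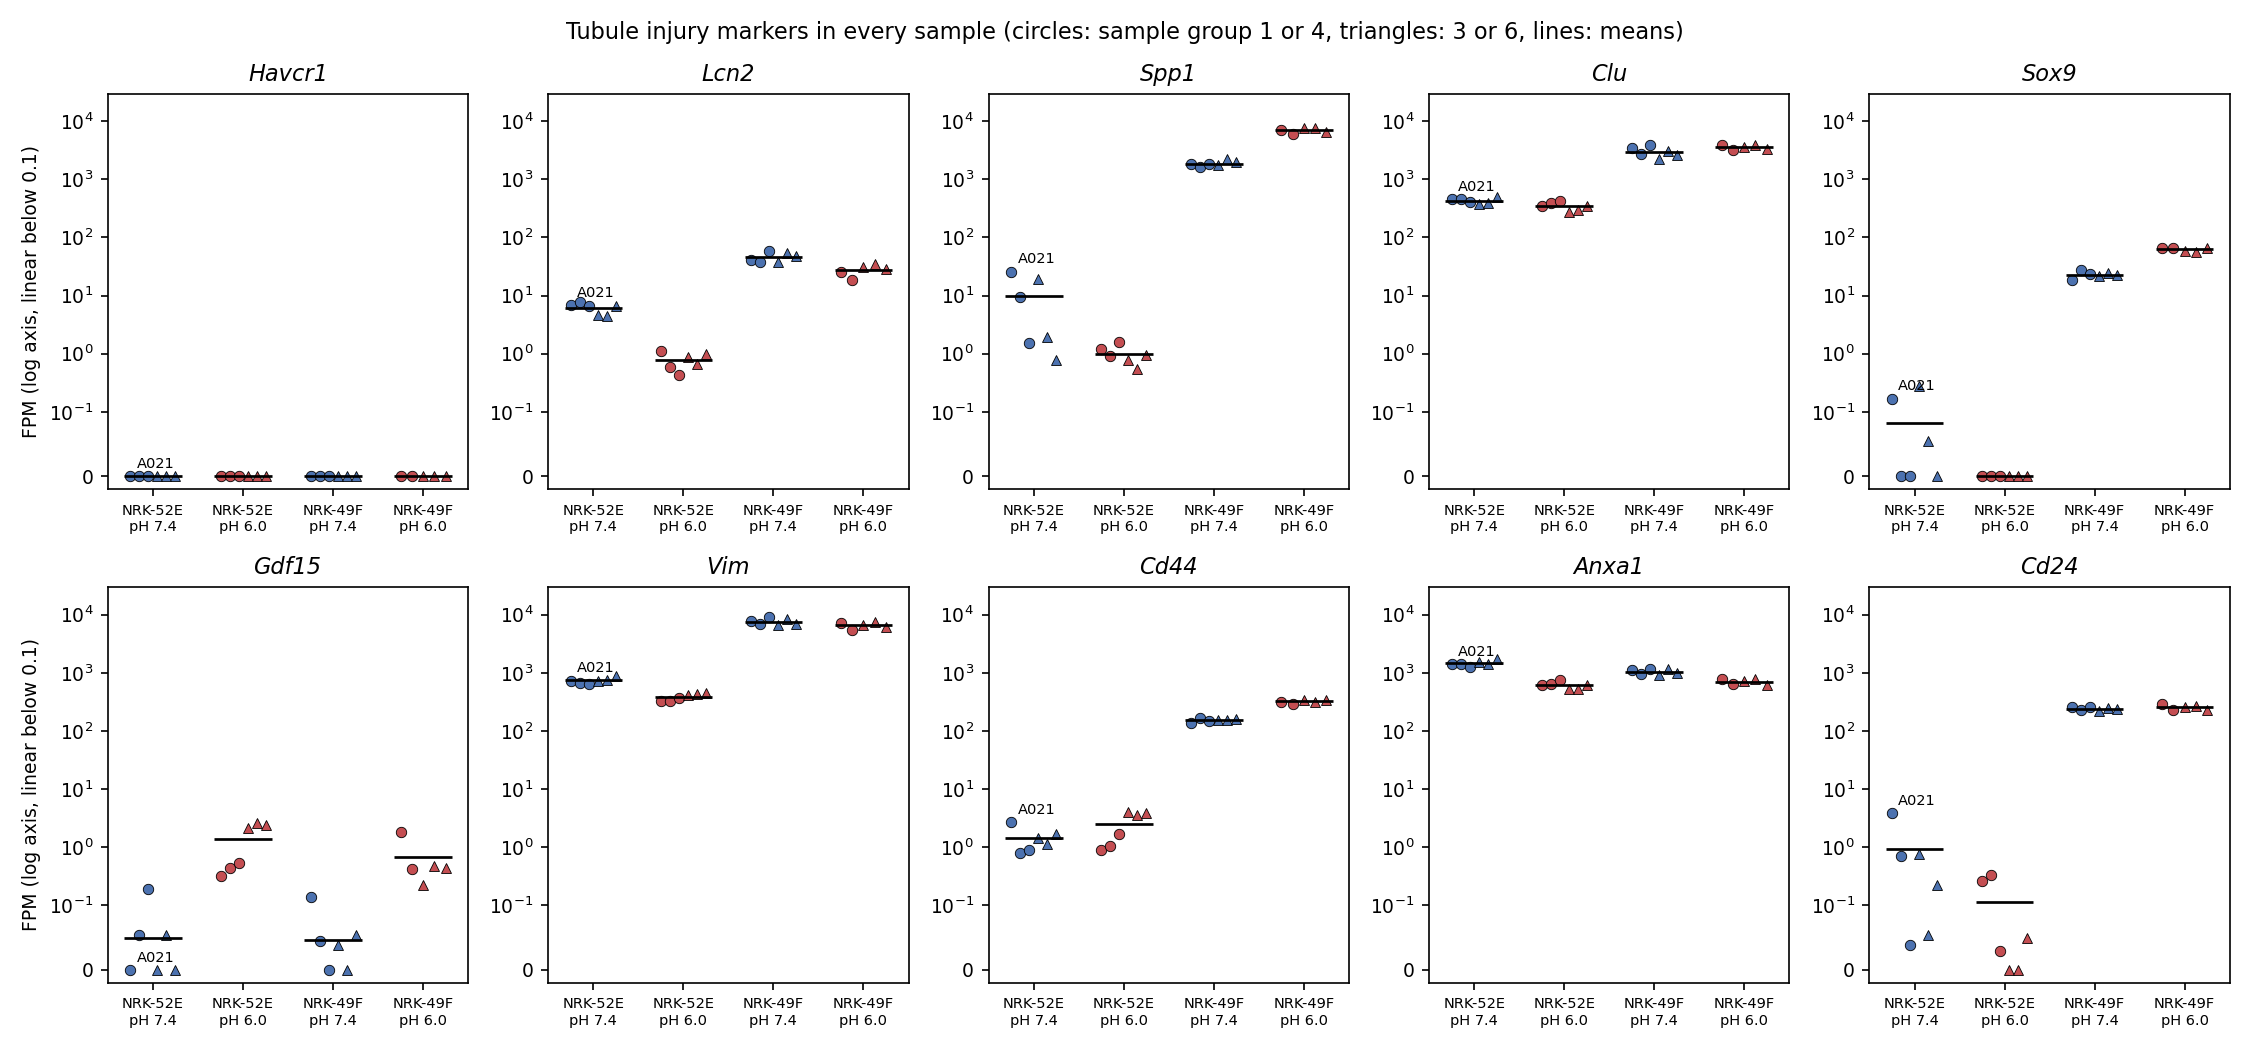
Level of each of the 10 injury markers in every sample, in FPM on a logarithmic axis that is linear below 0.1, for NRK-52E and NRK-49F cells at pH 7.4 (blue) and pH 6.0 (red), where circles are sample groups 1 and 4, triangles are sample groups 3 and 6, and the black line is the mean of the condition. The reader should see Havcr1 at 0 throughout, Spp1, Sox9, Cd44 and Cd24 far lower in NRK-52E than in NRK-49F cells, and replicate A021 at the top of the NRK-52E controls for Spp1, Cd44 and Cd24.

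At pH 7.4, 8 of 9 tested markers differed between the lines, where 68.8% of all tested genes did. Of these, 7 were lower in NRK-52E cells (33.9% of all tested genes were) and Anxa1 was higher (35% of all tested genes were). The 7 include Sox9 and Cd24, which passed the filter on low counts only through NRK-49F cells, where they were high. Their lower level in NRK-52E cells was therefore built into the selection. The counts and medians of this paragraph include both genes and are a description. The FPM values of the 2 lines did not overlap for these 8 markers, as for 50.7% of tested genes. At pH 6.0 the same 7 were lower in NRK-52E cells, where 38.9% of all tested genes were lower and 75.5% differed, and the values of these 7 did not overlap, as for 57.3% of tested genes. The median marker was -3.37 on the log2 scale in NRK-52E relative to NRK-49F cells at pH 7.4 and -5.18 at pH 6.0, and the median tested gene was 0.02 and -0.02.

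At pH 6.0 all 9 tested markers were called changed in NRK-52E cells, where 61.2% of all tested genes were. The 9 include Sox9 and Cd24, which passed the filter on low counts through NRK-49F cells and held few counts in NRK-52E cells, and Gdf15, which passed it only through acidic samples, so the count is a description. Only 2 rose, Gdf15 and Cd44, with 24.7% of tested genes higher, and 7 fell, with 36.6% of tested genes lower. Values at the 2 pH levels did not overlap for 4 markers (Lcn2, Gdf15, Vim and Anxa1), as for 38.6% of tested genes. In NRK-49F cells 6 of 9 changed, where 28.9% of tested genes did: Spp1, Sox9, Gdf15 and Cd44 rose (14.5% of tested genes were higher) and Lcn2 and Anxa1 fell (14.4% were lower), all 6 without overlap (20.6% of tested genes). The median log2 change of the markers was -1.25 in NRK-52E cells, or -1.09 without Sox9, and 0.26 in NRK-49F cells, and that of all tested genes was -0.12 and 0.00. The change itself differed between the lines for 7 of 9 markers, all more negative in NRK-52E cells, where 24.7% of tested genes were more negative and 41.4% differed. Within sample group 1 of NRK-52E cells 1 marker rose and 5 fell, where 48.9% of tested genes changed (18.8% higher and 30.1% lower), and within sample group 3 2 rose and 6 fell, where 57.4% changed (23.8% higher and 33.6% lower). Within sample group 4 of NRK-49F cells 3 rose and 2 fell, where 23% changed (12% higher and 11% lower), and within sample group 6 4 rose and 2 fell, where 21.2% changed (10.3% higher and 10.9% lower). Without A021, A022 and A033, the number of markers that fell in NRK-52E cells was 3 (Lcn2, Vim and Anxa1), the 2 rises remained, and 5 markers differed between the lines in their change. This left A023, A034 and A035 as the NRK-52E controls, so fewer samples may also have cost calls.

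**Figure D2:**
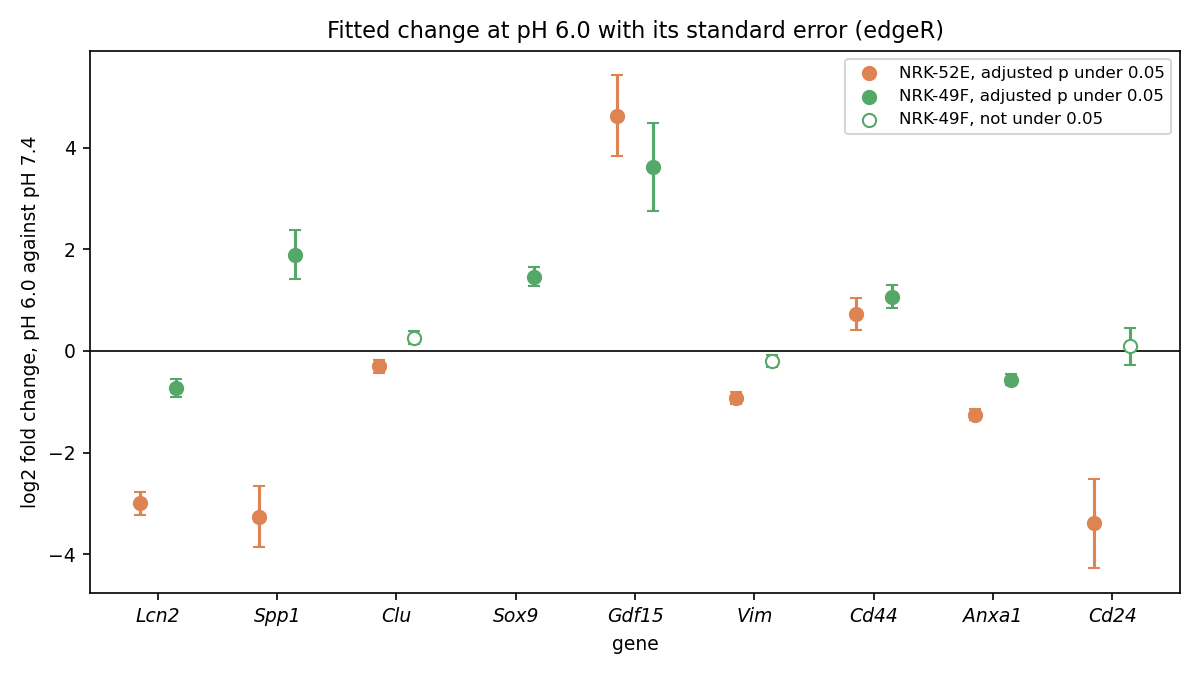
Fitted log2 fold change from pH 7.4 to pH 6.0 for each tested marker, with its standard error, in NRK-52E cells (orange) and NRK-49F cells (green), where filled points have an adjusted p under 0.05 and open points do not. Gdf15 is the highest point in both lines, Spp1 lies at -3.27 in NRK-52E and at 1.89 in NRK-49F cells, and Sox9 is not drawn for NRK-52E cells, where both pH levels averaged less than 3 counts.

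Havcr1 (ENSRNOG00000007243, chromosome 10) encodes the phosphatidylserine receptor KIM-1, which appears on the brush border of injured proximal tubules. It had 0 counts in all 23 samples, and 3 counts would have corresponded to 0.0839 to 0.203 FPM. Its transcript was not detectable at this depth in either line at either pH.

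Lcn2 (ENSRNOG00000013973, chromosome 3) encodes lipocalin-2, a secreted protein that binds bacterial siderophores and is released early after tubule injury. In NRK-52E cells the level ran from 4.47 to 7.75 FPM with a median of 6.56 FPM at pH 7.4, and from 0.437 to 1.12 FPM with a median of 0.776 FPM at pH 6.0. Every acidic sample lay below every control sample, in both sample groups. The counts behind the 6 acidic values were 11 to 21 per library. The fitted fall was 8.0-fold (log2 change -3.00 ± 0.22 SE, adjusted p = 6.23e-11), and the summed counts fell 8.32-fold with a 95% counting interval of 6.73 to 10.4. In NRK-49F cells the level was 37.3 to 57.5 FPM with a median of 43.9 FPM at pH 7.4, and 25.5, 18.7, 30.7, 35.3 and 28.5 FPM at pH 6.0. These 2 ranges did not overlap either, and the fitted fall was 1.65-fold (log2 change -0.72 ± 0.17, adjusted p = 2.89e-03). The fall was larger in NRK-52E cells, with a difference between the log2 changes of -2.28 ± 0.28 (adjusted p = 9.28e-07). Lcn2 was lower in NRK-52E than in NRK-49F cells at both pH levels, 7.48-fold at pH 7.4 and 36.3-fold at pH 6.0.

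Spp1 (ENSRNOG00000043451, chromosome 14) encodes osteopontin, a secreted integrin and CD44 ligand made by injured tubules and by matrix-producing cells. In NRK-49F cells the level was 1661 to 2198 FPM with a median of 1812 FPM at pH 7.4, and 7034, 5918, 7651, 7500 and 6603 FPM at pH 6.0. All 5 acidic samples exceeded all control samples by a wide margin, and the fitted rise was 3.71-fold (log2 change 1.89 ± 0.48, adjusted p = 4.58e-03). Within sample groups 4 and 6 the log2 change was 1.88 and 1.87 (adjusted p = 0.0706 and 0.0564). These contrasts used the spread of Spp1 over all 23 samples, NRK-52E samples included. In NRK-49F cells the pH levels were separated in sample group 4 (1661 to 1812 against 5918 to 7034 FPM). They were also separated in sample group 6 (1735 to 2198 against 6603 to 7651 FPM). In NRK-52E cells at pH 7.4 the samples read 25.8 FPM in A021, 9.58 in A022, 1.55 in A023, 19.3 in A033, 1.96 in A034 and 0.792 in A035. The 3 high samples are the 3 with signal of NRK-49F genes, and A021 held 1.38% of the mean NRK-49F level of Spp1. At pH 6.0 the level was 0.552 to 1.57 FPM with a median of 0.933 FPM. The fitted change was -3.27 ± 0.60 on the log2 scale (adjusted p = 5.11e-05), and it was -2.68 (adjusted p = 2.25e-04) without A021, -1.51 (adjusted p = 0.0521) with the signal subtracted and -0.48 (adjusted p = 0.142) without the 3 libraries. The difference of the change between the lines was -5.16 ± 0.77 (adjusted p = 1.04e-05), and -2.37 (adjusted p = 6.56e-06) without the 3 libraries.

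Clu (ENSRNOG00000016460, chromosome 15) encodes clusterin, an extracellular chaperone found in urine after tubule damage. In NRK-52E cells it measured 380 to 504 FPM with a median of 427 FPM at pH 7.4, and 273 to 426 FPM with a median of 352 FPM at pH 6.0. The ranges overlapped widely. The fitted change of -0.30 ± 0.13 on the log2 scale (adjusted p = 0.0426) kept its call in 11 of 27 alternatives, in which the adjusted p ran from 0.0134 to 0.423. It was lost without any 1 of A021, A022, A024, A035, A036, A037 and A038 (adjusted p of 0.059 to 0.116). In NRK-49F cells the median was 2882 FPM at pH 7.4, with a range of 2280 to 3848 FPM, and the acidic samples measured 3920, 3192, 3627, 3850 and 3311 FPM. The change of 0.26 ± 0.13 did not pass the test (adjusted p = 0.147). The difference between the lines was -0.56 ± 0.18 (adjusted p = 0.0165).

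Gdf15 (ENSRNOG00000019661, chromosome 16), whose promoter windows are printed above, encodes a stress-responsive cytokine of the TGF-β family that acts through a receptor in the hindbrain. It was close to the detection limit at pH 7.4 in both lines. Because it passed the filter on low counts only through its acidic samples, its calls are a description. NRK-52E samples at pH 7.4 held 0, 1, 5, 0, 1 and 0 counts, and at pH 6.0 they held 6, 8 and 18 counts in sample group 1 and 41, 47 and 48 counts in sample group 3. In FPM the acidic samples were 0.319 to 2.59 with a median of 1.34, and every control sample was at most 0.189. The summed counts rose 25.8-fold, with a 95% counting interval of 12.3 to 65.2, and the fitted log2 change was 4.63 ± 0.79 (adjusted p = 2.17e-05). The fitted value was 5.87 without A023, which held 5 of the 7 control counts. In NRK-49F cells the counts were 4, 1, 0, 1, 0 and 1 at pH 7.4 and 36, 7, 6, 13 and 8 at pH 6.0. They did not overlap, and the summed counts rose 13.0-fold (counting interval 5.97 to 33.4, fitted log2 change 3.62 ± 0.86, adjusted p = 2.42e-03). Replicate A042 held 36 of the 70 acidic counts, and without it the fitted change was 2.84 (adjusted p = 0.0182), while it was 4.38 (adjusted p = 2.51e-03) without A039. The rise did not differ detectably between the lines (1.01 ± 1.46, adjusted p = 0.620), with a standard error larger than the difference. Between the lines at pH 6.0 the log2 difference was 1.04 ± 0.60 (adjusted p = 0.116), and 1.82 (adjusted p = 0.0113) without A042.

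Sox9 (ENSRNOG00000002607, chromosome 10) encodes a transcription factor that is switched on in regenerating proximal tubule cells and also drives matrix genes in mesenchymal cells. In NRK-49F cells the level was 18.3 to 27.1 FPM with a median of 23 FPM at pH 7.4, and 65.9, 67.0, 58.1, 56.6 and 67.1 FPM at pH 6.0. All acidic samples were above all control samples, and the rise was 2.75-fold (log2 change 1.46 ± 0.18, adjusted p = 6.10e-06). The rise was 1.53 in sample group 4 and 1.41 in sample group 6 on the log2 scale. NRK-52E samples held 6, 0, 0, 6, 1 and 0 counts at pH 7.4 and none at pH 6.0. The test called the difference of 13 against 0 counts lower at pH 6.0 (adjusted p = 4.24e-03), but the mean of the control samples, 0.0826 FPM, lay below the 0.147 FPM that 3 counts would give on average in an acidic library, so no fold is given. The 12 counts in A021 and A033 belong to libraries with NRK-49F signal, and without A021, A022 and A033 the call was lost (adjusted p = 0.205), while it was kept with the signal subtracted (adjusted p = 0.0372). At pH 6.0 the level in NRK-49F cells was at least 429-fold higher than 3 counts per library in NRK-52E cells.

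Cd44 (ENSRNOG00000006094, chromosome 3) encodes the receptor for hyaluronan and osteopontin that appears on injured and regenerating tubule cells. In NRK-49F cells it measured 137 to 170 FPM with a median of 154 FPM at pH 7.4, and 315, 292, 339, 321 and 342 FPM at pH 6.0. The acidic and control samples were fully separated, with a rise of 2.1-fold (log2 change 1.07 ± 0.23, adjusted p = 1.02e-03). NRK-52E cells held 102-fold less at pH 7.4 (log2 difference -6.67, from -7.57 to -6.55 over alternatives) and 129-fold less at pH 6.0. Their samples at pH 7.4 read 2.69, 0.807 and 0.905 FPM in sample group 1 and 1.41, 1.15 and 1.70 FPM in sample group 3. At pH 6.0 they read 0.903, 1.04 and 1.69 FPM in sample group 1 and 4.03, 3.64 and 3.80 FPM in sample group 3. The groups therefore overlapped in sample group 1 and were separated in sample group 3. The fitted log2 change over all NRK-52E samples was 0.73 ± 0.31 (adjusted p = 0.0445), which kept its call in 15 of 27 alternatives. It was lost without any 1 of A022, A023, A033, A034, A035, A036, A037 and A038 (adjusted p of 0.0503 to 0.139). Without A021, which held 1.75% of the NRK-49F level, it was 1.07 (adjusted p = 5.07e-03), without the 3 libraries 1.02 (adjusted p = 0.0289) and with the NRK-49F signal subtracted 1.62 (adjusted p = 4.63e-04).

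Within sample group 1 the log2 change of Cd44 in NRK-52E cells was -0.31 (adjusted p = 0.449), and within sample group 3 it was 1.43 (adjusted p = 4.82e-04). The 2 changes differed by 1.74 ± 0.45 (adjusted p = 0.0152). Of 9 markers 1 differed in this way, Cd44, which is near the share of all tested genes, 10.6%. Of all tested genes, 3.78% had a higher and 6.87% a lower change in sample group 3. The Cd44 difference was 0.87 (adjusted p = 0.112) without A021 and 0.37 (adjusted p = 0.684) with the NRK-49F signal subtracted. It was 0.94 without the 3 libraries, where A023 was the only control sample left in sample group 1. Gdf15 showed the same order, with 2.44 in sample group 1 and 6.70 in sample group 3, but the difference of 4.26 ± 1.56 did not pass the test (adjusted p = 0.0891), and it was 4.99 (adjusted p = 0.0362) without A021 and 2.52 (adjusted p = 0.613) without A023. In NRK-49F cells no tested gene differed between sample groups 4 and 6 in its change (0% called by edgeR's quasi-likelihood test, 7 genes by its likelihood ratio test, and 596 genes at an unadjusted p under 0.05).

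**Figure D3:**
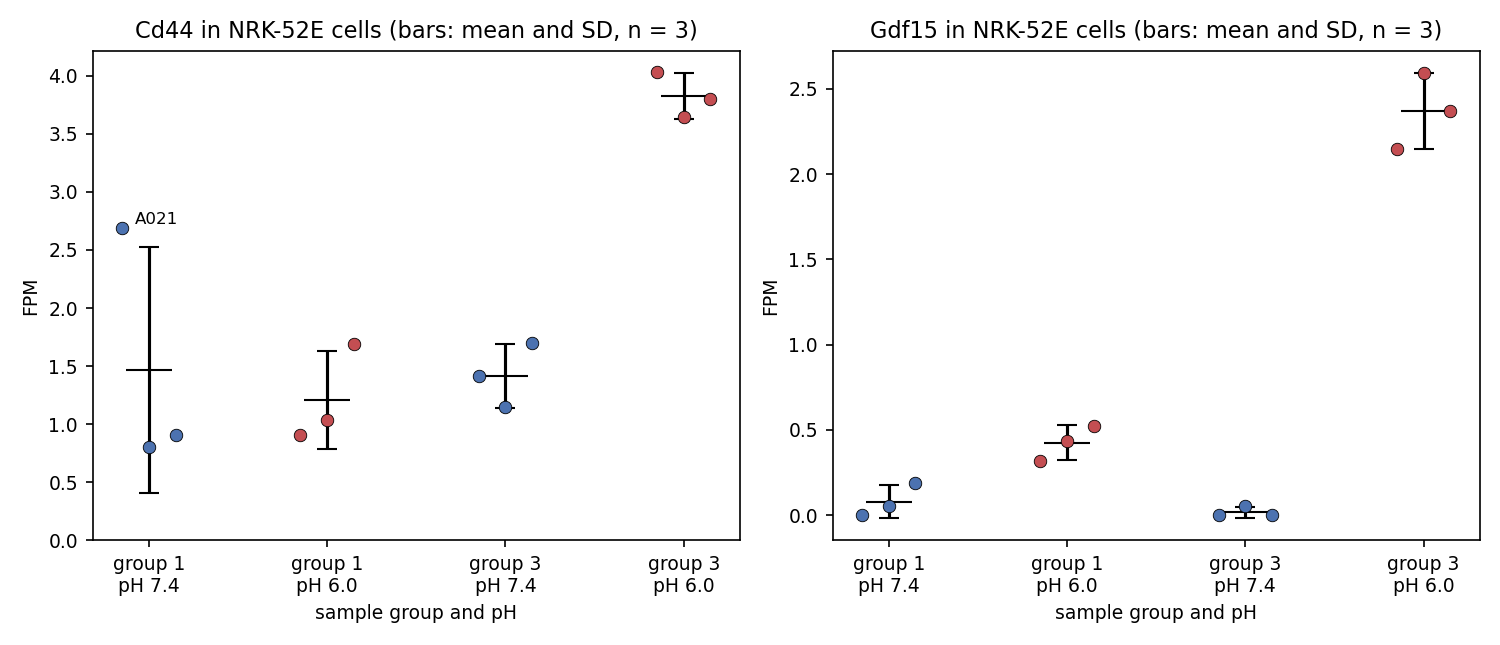
Cd44 (left) and Gdf15 (right) in NRK-52E cells, in FPM on linear axes, by sample group and pH, where points are samples, blue at pH 7.4 and red at pH 6.0, and the horizontal and vertical bars are the mean and SD of 3 samples. The acidic samples of sample group 3 are above all others for both genes, and the control sample A021 stands above the other controls for Cd44.

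Cd24 (ENSRNOG00000000321, chromosome 20) encodes a small glycoprotein of progenitor-like tubule cells. In NRK-49F cells it measured 217 to 262 FPM with a median of 241 FPM at pH 7.4, and 291, 230, 255, 272 and 232 FPM at pH 6.0. These ranges coincided, with a log2 change of 0.09 ± 0.36 (adjusted p = 0.889). NRK-52E samples at pH 7.4 held 139 counts in A021, 13 in A022, 1 in A023, 17 in A033, 1 in A034 and 4 in A035, and the samples at pH 6.0 held 5, 6, 1, 0, 0 and 1. A single library, A021, supplied 139 of the 175 control counts, at 1.62% of the NRK-49F level. The fitted log2 change of -3.39 ± 0.88 (adjusted p = 1.83e-03) was -1.74 (adjusted p = 0.0319) without A021, -0.23 (adjusted p = 0.820) with the NRK-49F signal subtracted and 0.066 (adjusted p = 0.966) without the 3 libraries. The difference between the lines of -3.48 ± 0.97 (adjusted p = 5.63e-03) was -0.02 (adjusted p = 1.00) without the 3 libraries.

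**Figure D4:**
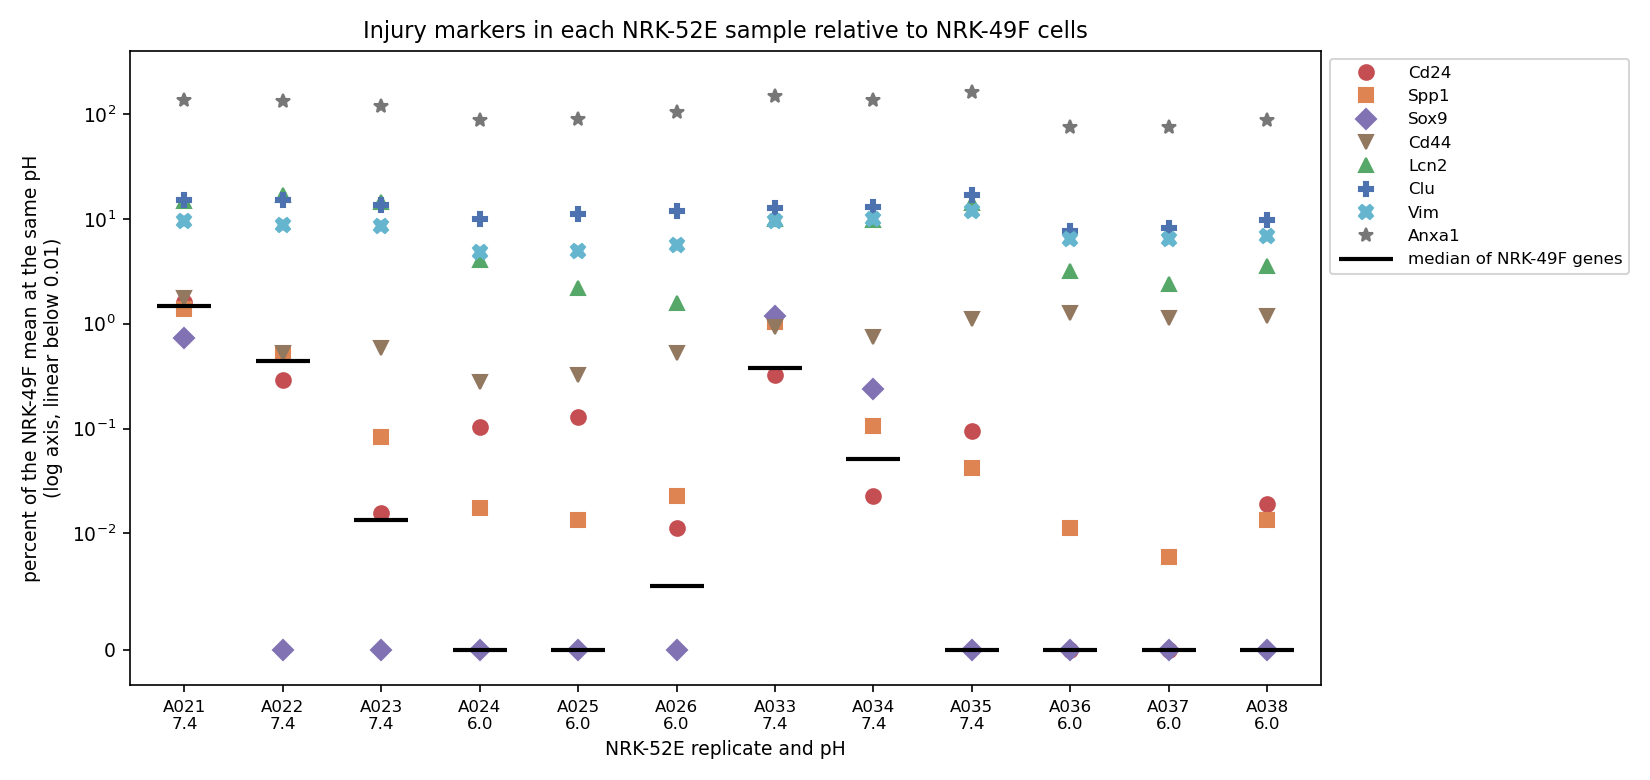
Level of 8 injury markers in each NRK-52E sample as a percentage of the NRK-49F mean at the same pH, on a logarithmic axis that is linear below 0.01, with replicate and pH on the horizontal axis and a black dash for the median of 12 genes of NRK-49F cells. The dash lies at 1.47% in A021, 0.444% in A022 and 0.376% in A033, where Cd24 (red circles) reached 1.62%, 0.290% and 0.321% and Spp1 (orange squares) 1.38%, 0.512% and 1.03%, and Lcn2, Clu, Vim and Anxa1 lie well above it in every sample.

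Vim (ENSRNOG00000018087, chromosome 17) encodes vimentin, the intermediate filament of mesenchymal cells that tubule cells take up after injury. In NRK-52E cells the level was 649 to 900 FPM with a median of 731 FPM at pH 7.4, and 321 to 457 FPM with a median of 399 FPM at pH 6.0. The acidic samples all lay below the controls, with a fall of 1.90-fold (log2 change -0.93 ± 0.12, adjusted p = 2.75e-07). Without the 3 libraries the log2 change was -0.99 (adjusted p = 1.01e-05). In NRK-49F cells the level was 6687 to 9048 FPM with a median of 7284 FPM at pH 7.4, and 7194, 5537, 6699, 7534 and 6168 FPM at pH 6.0. These ranges overlapped, and the change of -0.20 ± 0.12 did not pass the test (adjusted p = 0.230). The changes differed between the lines by -0.73 ± 0.17 (adjusted p = 1.15e-03). Vim was 10.3-fold lower in NRK-52E cells at pH 7.4 and 17.1-fold lower at pH 6.0.

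Anxa1 (ENSRNOG00000017469, chromosome 1) encodes annexin A1, a calcium-dependent phospholipid-binding protein with anti-inflammatory action. It was the one marker that was higher in NRK-52E cells at pH 7.4, at 1248 to 1714 FPM with a median of 1431 FPM, against 923 to 1166 FPM with a median of 1066 FPM in NRK-49F cells. This difference was 1.39-fold (log2 difference 0.48 ± 0.10, adjusted p = 1.69e-04). At pH 6.0 it was 530 to 740 FPM with a median of 624 FPM in NRK-52E cells, and 788, 631, 735, 770 and 622 FPM in NRK-49F cells. The lines now overlapped (log2 difference -0.21 ± 0.10, adjusted p = 0.0723), although the difference was called without A026 (-0.27, adjusted p = 0.0234), A043 (-0.25, adjusted p = 0.0436) or A056 (-0.30, adjusted p = 0.0159). Both lines lost Anxa1 without overlap between the pH levels, 2.38-fold in NRK-52E (log2 change -1.25 ± 0.10, adjusted p = 2.26e-10) and 1.48-fold in NRK-49F cells (log2 change -0.57 ± 0.10, adjusted p = 2.20e-04). The fall was larger in NRK-52E cells, with a difference between the log2 changes of -0.68 ± 0.14 (adjusted p = 4.91e-04), and within sample groups 1 and 3 the NRK-52E change was -1.03 and -1.48.

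Ordered by their mean in NRK-52E cells relative to NRK-49F cells at pH 7.4, the markers ran from Sox9, Cd24, Spp1 and Cd44, with fitted log2 differences of -7.86, -7.74, -7.55 and -6.67, to Vim, Lcn2 and Clu at -3.37, -2.90 and -2.80, then Gdf15 at 0.03 and Anxa1 at 0.48. In NRK-52E cells Sox9 averaged 0.0826 FPM, below the 0.138 FPM that 3 counts would give on average, so its value is not a measured fold. Gdf15 held 7 counts in each line, at means of 0.0495 and 0.0460 FPM, also below 3 counts per library. The standard errors of the 4 lowest were 0.31, 0.49, 0.61 and 0.30, and each differed from its neighbour in this order by less than the sum of their standard errors. These errors are derived from F and may understate the spread where counts are few. In NRK-52E cells at pH 7.4 Sox9 held 13 counts in all, and Cd24 averaged 0.947 FPM with an SD of 1.48. The same holds for Lcn2 and Clu, with standard errors of 0.18 and 0.13, and for Gdf15 and Anxa1, with 1.24 and 0.10. Without A021 the order at the low end was Cd24 at -9.40, Sox9 at -8.28, Spp1 at -8.13 and Cd44 at -7.01. Over all alternatives run, the log2 difference ranged from -11.2 to -7.48 for Cd24 and from -10.3 to -7.31 for Spp1. For Sox9 it ranged from -10.0 to -7.57 and for Cd44 from -7.57 to -6.55. The size of these 4 differences and their order therefore depend on the NRK-52E libraries used.

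Other genes of the injury response were read from lists that do not contain the 10 markers. Among 11 tested secreted injury markers, 2 rose and 5 fell in NRK-52E cells, and 2 rose and 3 fell in NRK-49F cells. For this and the lists that follow, 24.7% of all tested genes rose and 36.6% fell in NRK-52E cells, against 14.5% and 14.4% in the other line. Lif, a cytokine of the interleukin-6 family, rose in NRK-52E cells, with 24.6 ± 1.16 FPM (SD) at pH 7.4 and 51.3 ± 11.4 FPM at pH 6.0 (log2 change 1.06, adjusted p = 6.93e-08). The complement component C3 fell in both lines, from 52.7 ± 7.32 to 14.4 ± 2.98 FPM in NRK-52E cells (-1.87, adjusted p = 1.17e-10) and from 27.1 ± 3.90 to 4.18 ± 0.956 FPM in NRK-49F cells (-2.68, adjusted p = 2.66e-11). B2m, the light chain of class I molecules, rose in NRK-52E cells (0.40, adjusted p = 2.02e-03, and 0.0622 within sample group 3). Its call in NRK-49F cells (0.29, adjusted p = 0.0488) was lost with the sample group as a block (adjusted p = 0.0552), with each line alone (0.0798) and without any 1 of A039, A040, A042, A051, A053, A054 and A055. In NRK-49F cells Mif rose (0.69, adjusted p = 2.23e-03) and the neutrophil chemokine Cxcl1 fell from 84.0 ± 14.5 to 41.9 ± 10.1 FPM (-1.0, adjusted p = 6.46e-03). Neither was called there within sample group 6 (adjusted p = 0.0680 and 0.0541). The monocyte chemokine Ccl2 was one of the 12 genes used to read the NRK-49F signal, and its fall in NRK-52E cells from 1.05 to 0.0344 FPM (adjusted p = 3.06e-04) was not called without the 3 libraries (adjusted p = 0.298).

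Of 13 tested genes of dedifferentiation and repair, 1 rose and 3 fell in NRK-52E cells, and 2 rose and 4 fell in NRK-49F cells. The riser in NRK-52E cells was Cdkn1a, the cell cycle inhibitor p21, which went from 17.4 ± 3.79 to 370 ± 187 FPM (log2 change 4.41, adjusted p = 2.14e-12), beside 305 ± 22.9 and 347 ± 40.3 FPM in NRK-49F cells at pH 7.4 and 6.0. The keratins Krt7 and Krt8 of simple epithelia, the only keratins of the list with enough counts, fell in both lines: Krt7 from 21.8 ± 6.04 to 4.04 ± 1.01 FPM (-2.42, adjusted p = 1.10e-07) and Krt8 from 499 ± 76.4 to 222 ± 26.7 FPM (-1.17, adjusted p = 1.02e-07) in NRK-52E cells, with log2 changes of -1.79 and -0.57 in NRK-49F cells (adjusted p = 1.83e-03 and 4.09e-03). In NRK-49F cells Hmox1, the haem-degrading stress enzyme, rose from 14.8 ± 1.28 to 38.9 ± 12.1 FPM (1.39, adjusted p = 1.86e-04), Plaur was called higher (0.27, adjusted p = 0.0224), but not without A051 or A055 or within either sample group, and the growth factor Hbegf fell (-0.79, adjusted p = 9.95e-07).

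Of 13 tested annexins, S100 proteins and galectins, 8 fell and 2 rose in NRK-52E cells (36.6% and 24.7% of all tested genes did), and 6 fell and 1 rose in NRK-49F cells (14.4% and 14.5%). Lgals1 (galectin-1) fell from 404 ± 125 to 86.4 ± 8.58 FPM (-2.22, adjusted p = 1.58e-09) and Anxa2 from 1105 ± 170 to 531 ± 80.6 FPM (-1.06, adjusted p = 1.22e-07) in NRK-52E cells, while Lgals3 (galectin-3, 0.75, adjusted p = 3.03e-04) and Anxa7 (0.30, adjusted p = 3.91e-04) rose. In NRK-49F cells Anxa3 fell from 162 ± 26.2 to 51.3 ± 5.63 FPM (-1.66, adjusted p = 5.71e-10) and Anxa6 fell (-0.63, adjusted p = 5.62e-05), while the call of Anxa4 as higher (0.21, adjusted p = 0.0329) was lost without the filter on low counts (adjusted p = 0.0751), within either sample group, and without any 1 of A039, A040, A041, A042, A051, A053, A054 and A055. The median log2 change of the list was -0.59 and -0.42 in the 2 lines.

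Among 14 tested receptors, ligands and partners of the markers, 4 rose and 7 fell in NRK-52E cells, and 2 rose and 3 fell in NRK-49F cells. Hmmr, a second hyaluronan receptor that also acts at the mitotic spindle, rose in both lines (2.0 and 1.38, adjusted p = 3.28e-04 and 0.0181). Siglec10, a receptor for Cd24, was almost absent from control NRK-52E cells, at 0.0291 ± 0.0334 FPM, and rose to 1.29 ± 0.845 FPM on acidosis (adjusted p = 2.67e-06). In NRK-49F cells Siglec10 went from 0.330 ± 0.218 FPM to no counts (adjusted p = 1.17e-03). It depended on its acidic NRK-52E samples to pass the filter on low counts, so both calls are a description. Selp, P-selectin, fell from 18.7 ± 6.70 to 0.908 ± 0.527 FPM in NRK-52E cells (-4.31, adjusted p = 2.47e-09). Has1, a hyaluronan synthase, rose in NRK-49F cells from 7.04 ± 1.68 to 14.3 ± 1.24 FPM (1.03, adjusted p = 0.0102), and Slc22a17, a receptor for Lcn2, fell there (-0.39, adjusted p = 3.01e-03, and 0.0652 within sample group 6). Has2 was called lower in NRK-52E cells (adjusted p = 0.0168) at a mean of 0.0789 FPM at pH 7.4, less than 3 counts per library, and was not called without A021 alone or without the 3 libraries.

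Genes of mature tubule function were mostly too low to test, and only 7 of 21 could be tested. In NRK-52E cells 1 of these rose and 2 fell, the latter at about 1 FPM or less (Calb1 and Slc5a2), and in NRK-49F cells 3 rose. Ggt1, the brush border γ-glutamyltransferase, rose from 51.9 ± 6.44 to 354 ± 42.1 FPM in NRK-49F cells (2.77, adjusted p = 6.90e-09) and from 9.24 ± 2.99 to 13.7 ± 6.42 FPM in NRK-52E cells (0.56, adjusted p = 0.0451). In NRK-52E cells Ggt1, Calb1 and Slc5a2 were not called without the 3 libraries (adjusted p = 0.0716, 0.0502 and 0.0512). Ggt1 in NRK-52E cells was also lost without any 1 of A022, A024, A025, A026, A033, A034 and A035, and Slc5a2 without any 1 of A022, A023, A024, A025, A037 and A038.

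Of 5 tested Sox genes other than Sox9, 3 fell in NRK-52E and 2 in NRK-49F cells, and none rose. Sox12 fell in both lines (-1.22 and -0.59, adjusted p = 2.56e-09 and 5.97e-04), Sox11 fell in NRK-49F cells (-1.23, adjusted p = 4.25e-04) and Sox5 was called lower in NRK-52E cells, from 0.238 to 0.0261 FPM (adjusted p = 1.73e-05). The acidic level of Sox5 lay below the 0.147 FPM that 3 counts would give there on average. Of 8 tested genes of intermediate filaments and their linkers other than Vim, 2 rose and 5 fell in NRK-52E cells, and 4 rose and 1 fell in NRK-49F cells. Des, the muscle filament desmin, rose from 0.986 ± 0.219 to 19.9 ± 4.93 FPM (4.34, adjusted p = 4.84e-13) and Nes, nestin of progenitor cells, from 2.01 ± 0.670 to 21.3 ± 10.6 FPM (3.41, adjusted p = 3.46e-09) in NRK-52E cells. Prph (peripherin) fell there from 22.7 ± 8.10 to 4.27 ± 0.606 FPM (-2.40, adjusted p = 5.62e-09), and the linker Plec fell in both lines (-1.31 and -0.86, adjusted p = 4.91e-09 and 2.58e-05). In NRK-49F cells Synm (1.11, adjusted p = 6.11e-07) and Des (0.82, adjusted p = 0.0149) rose, and Des was not called without A042 or within sample group 4.

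**Figure D5:**
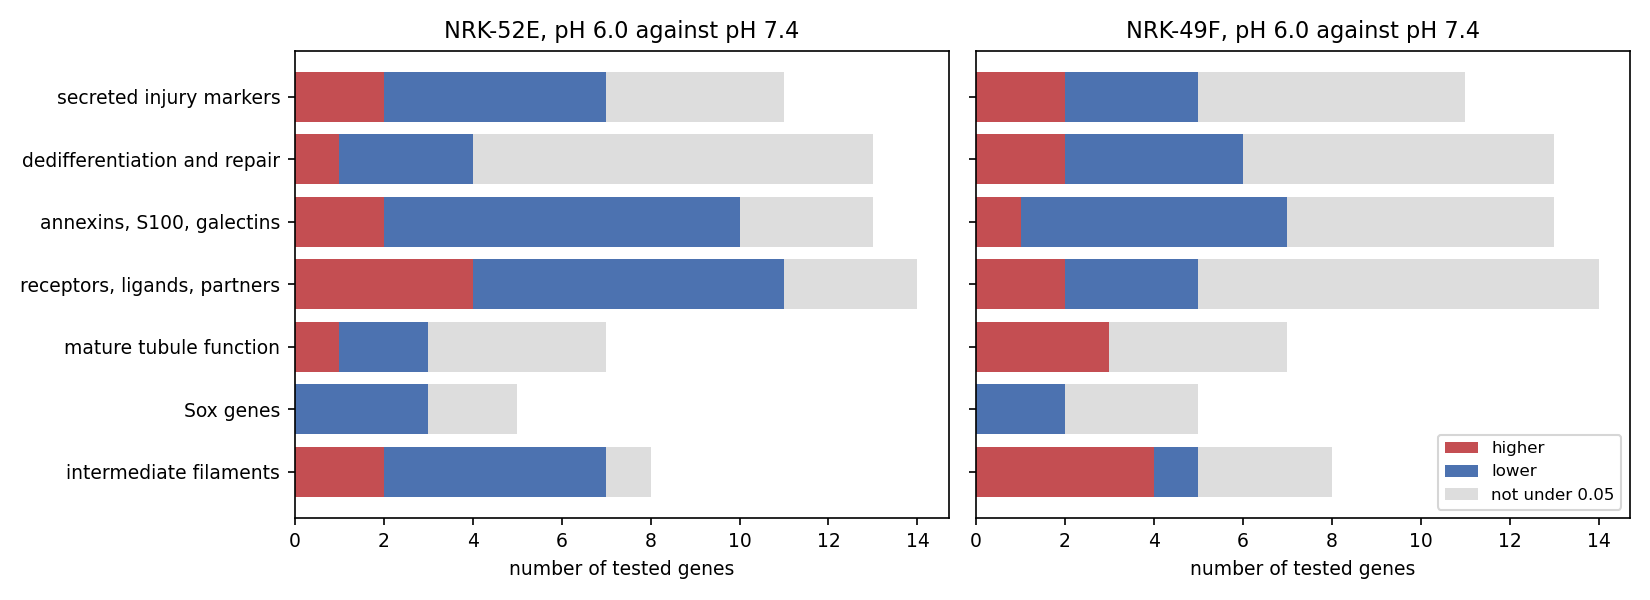
Number of tested genes that were higher (red), lower (blue) or did not pass an adjusted p of 0.05 (grey) at pH 6.0, for 7 lists of genes related to the injury markers, in NRK-52E cells (left) and NRK-49F cells (right). Annexins, S100 proteins and galectins were lower for 8 of 13 genes in NRK-52E cells and for 6 of 13 in NRK-49F cells.

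The genes whose level ran most like a marker were found by Pearson's coefficient of log2 FPM over the 23 samples, among 10236 genes (10237 for Gdf15) whose average over the 23 samples was 5 FPM or more. For most markers the coefficient rests on the difference between the lines, and the samples share libraries and depth, so it is a description. Spp1 ran most like Mmp2 (0.996), Adm (0.996) and Mmp3 (0.995), and the coefficient with Mmp2 was 0.954 within NRK-52E and 0.997 within NRK-49F cells. Gdf15 ran most like Nrdc (0.941), with 0.941 within each line. Anxa1 ran most like Ankmy2 (0.978), with 0.982 and 0.960 within the lines, and Lcn2 most like C1s (0.988), with 0.961 and 0.868. Sox9 ran most like Erlin1 (0.996), Cd44 most like Layn (0.993), Vim most like Emilin1 (0.995), Clu most like Baiap2 (0.995) and Cd24 most like Gng11 (0.994). Within NRK-52E and NRK-49F cells these coefficients were lower: 0.802 and 0.957 for Sox9, 0.726 and 0.912 for Cd44, and 0.924 and 0.538 for Vim. They were 0.808 and 0.781 for Clu and 0.899 and 0.612 for Cd24.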

How the data were processed

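Poly(A) RNA of NRK-52E and NRK-49F cells was sequenced as paired reads by a service provider. Per the labels and the study's methods, the authors aligned reads with HISAT2 2.1.0 and counted exons with featureCounts against Ensembl annotation, keeping multi-mapping reads. The genome build is given as rn7 in the methods and as rn6 in the submitters' processing notes, so no coordinates of that build are given. The strand setting is not given in the sources used here, and overlapping or paralogous genes may share reads. The deposited table holds raw counts per gene and sample, and 13 further columns that match no labelled sample were not used.

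FPM was computed with edgeR 4.0.16 from TMM-scaled library sizes. After filterByExpr (minimum count 10, minimum total 15), edgeR's quasi-likelihood F test was fitted to all 23 samples with 4 conditions, and with 8 conditions for the sample groups. P-values were adjusted by Benjamini-Hochberg over 14777 genes, and calls were made at 0.05. The standard error is the log2 fold change divided by the square root of F, an approximation that is poor for groups with few counts. No 2 samples of a group agreed within sampling noise (chi-square per gene at least 5.94). The test was checked on simulated counts. Counting intervals are exact 95% intervals and cover counting error only. Alternatives were other scalings, tests and filters, each line alone, the sample group as a block, thinned libraries and left-out samples. Contrasts within a sample group, from the fit of 8 conditions, were also used. All were run with R 4.3.3 and DESeq2 1.42.0.

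The markers and all gene lists were chosen with earlier results of these data known. Of each other list, the 2 largest called rises and the 2 largest called falls per line are named, except for 1 gene that is not reported here. Promoters are RefSeq windows of GRCr8.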

Additional observations from a re-analysis of the deposited data

Results flagged for a closer look

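In 3 of 35 groups of samples checked, 1 sample stood apart from the others by Dixon's criterion, and chance alone gives about 1 in 20. Replicate A023 held 0.189 FPM of Gdf15, 5 counts, where the other NRK-52E samples at pH 7.4 held 0 or 1. Replicate A042 held 1.83 FPM of Gdf15 among the NRK-49F samples at pH 6.0. Replicate A021 held 3.89 FPM of Cd24 among the NRK-52E samples at pH 7.4, and this is the library with the highest level of NRK-49F genes.

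The change at pH 6.0 differed between the lines for 7 markers by the contrast of the 2 changes, with NRK-52E minus NRK-49F values on the log2 scale of -2.28 for Lcn2, -5.16 for Spp1, -0.56 for Clu, -5.60 for Sox9, -0.73 for Vim, -0.68 for Anxa1 and -3.48 for Cd24. The value of Sox9 rests on 13 counts in NRK-52E cells, and neither Sox9 nor Cd24 was called without A021, A022 and A033. The change of Cd44 in NRK-52E cells differed by 1.74 between sample groups 3 and 1, as 10.6% of all tested genes differed, and this was not called without A021.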

How the results depend on the processing

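In NRK-52E cells, Lcn2, Vim and Anxa1 kept direction and call in all 27 alternatives run for each. Gdf15 was called in each of the 20 in which it was tested, but it passed the filter only through its acidic samples and was not tested without A026, A036, A037 or A038, so this does not show stability. In NRK-49F cells Lcn2, Cd44 and Anxa1 (26 each) and Sox9 (25) kept direction and call in all their alternatives. Spp1 lost its call in the contrasts within sample groups 4 and 6. Those contrasts came from the fit of 8 conditions to all 23 samples, so no sample group was fitted alone. The number of markers that rose in NRK-52E cells, 2 as reported, was 1 with upper quartile scaling, with at least 10 counts in every sample, with the sample group as a block, within sample group 1 and in thinned libraries, and 0 with each cell line alone. The number that fell, 7 as reported, was 4 with each line alone and with the NRK-49F signal subtracted, and 3 without A021, A022 and A033. With at least 10 counts in every sample 2 markers rose in NRK-49F cells, since Sox9 and Gdf15 were then not tested. Between the sample groups of NRK-52E cells, 2 markers differed by the likelihood ratio test, 0 with the signal subtracted and 0 without the 3 libraries, where 465 genes were called in place of 1573. The likelihood ratio test called 7 genes between the sample groups of NRK-49F cells, where the quasi-likelihood test called 0. Leaving out 1 replicate gave 0 to 2 risers and 6 to 7 fallers in NRK-52E cells, 0 to 1 markers higher and 7 to 8 lower in NRK-52E than in NRK-49F cells at pH 6.0, and 0 to 11 genes between the sample groups of NRK-49F cells. The direction reversed for Cd44 within sample group 1 (-0.31), for the difference of the Cd44 change between the lines with the signal subtracted (0.55) and without A021 (0.0015, in a range of -0.52 to 0.0015 over left-out replicates), and for Cd24 without the 3 libraries (0.066). Lower counts of risers include settings in which Gdf15 did not pass the filter, and the cause of the other changes was not tested. DESeq2 gave no adjusted p for Cd24, which was left out there. Another scaling moved the median of all genes by less than 0.1. The labels do not pair single samples across pH, so no paired test was run. The main fit of 4 conditions left out the sample group, which was used as a block only among the alternatives. At 3 counts per library, levels under about 0.2 FPM were not detectable.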
